A study of Ovis aries with 40 samples.

Results

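The genes described here belong to a pair of enzyme families, one that attaches ubiquitin to proteins and one that takes it off again. They are the ubiquitin-conjugating enzymes, whose symbols start with UBE2, and the ubiquitin-specific proteases, whose symbols start with USP followed by a digit. Members were chosen by symbol alone. Of the 9155 genes represented on the arrays by a probe set with a single gene symbol, 53 were members, 26 of them UBE2 genes and 27 USP genes. Expression was measured in longissimus dorsi muscle of 40 Poll Dorset sheep at 78 weeks of age, with 1 GeneChip Bovine Genome array per animal. The animals were progeny of 6 sires. Those of sires 11 (n = 8), 2 (n = 7) and 7 (n = 4) were classified as high in estimated breeding value for eye muscle depth and form the high muscling group (n = 19). Those of sires 16 (n = 8), 17 (n = 5) and 5 (n = 8) were classified as low and form the low muscling group (n = 21). All were raised under the same industry standard. No sire had progeny in both muscling groups, so a group stands for 3 sires, and a difference between the groups and a difference between those sires cannot be told apart.

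Ubiquitin is a small protein that marks other proteins, mostly for destruction by the proteasome. An activating enzyme (E1) charges it, a conjugating enzyme (E2, the UBE2 genes) carries it, and a ligase (E3) passes it to the substrate. Most USP enzymes are proteases that cut ubiquitin off again, which can rescue a substrate or recycle ubiquitin. In skeletal muscle this system is the main route by which contractile proteins are broken down, and UBE2B is the E2 enzyme most often linked to muscle wasting. The study looked for genes whose expression stayed correlated across sheep muscle samples and set that network against one from cattle. The labels also allow the enzymes of this system to be compared between high and low muscling and between sires.

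Values are MAS5 signals, a measure of array brightness on a linear scale with no unit. The array carries bovine probes, the RNA came from sheep, and signals of different probe sets depend on the probes, so they are compared between animals and not between genes. The trimmed mean of each array was about 200 by construction, log2 signals of any pair of arrays correlated at an r of 0.855 to 0.900, and no array stood apart. In bulk muscle, fewer cells of a type and less RNA per cell cannot be told apart. All 10 skeletal muscle markers were detected, as were all 8 of fibroblasts and all 5 of smooth muscle. Also detected were 8 of 9 fat, 5 of 6 endothelial and 6 of 9 leukocyte markers. Of the 4 markers of red blood cells and the 2 of nerve, 1 each was detected.

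Genes counted as detected when their mean signal over the 40 animals reached 61.8, the median over all probe sets other than controls. Of the 26 UBE2 genes 24 were detected (92.3%), and of the 27 USP genes 22 (81.5%), against 69.5% of all 9155 genes. UBE2E2 and UBE2L3 were below this level, as were USP18, USP20, USP30, USP37 and USP50. UBE2D1, UBE2M, USP7, USP9X, USP25 and the genes of ubiquitin itself were not analysed here. The brightest probe sets, which do not order the genes by transcript amount, belonged to UBE2B (mean signal 10198 ± 1098, SD, n = 40), UBE2D3 (5420 ± 660.3) and UBE2G1 (5330 ± 1156) in the one family and to USP47 (2393 ± 494.7), USP10 (1712 ± 390) and USP14 (1476 ± 139.2) in the other.

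Members of both families ranged from steady to highly variable between animals. The median SD of log2 signal was 0.289 for UBE2 (0.161 to 1.057), 0.367 for USP (0.137 to 1.042) and 0.382 for all 6360 detected genes. The median of the mean signals was 613.9 for UBE2, 323.3 for USP and 229.6 for all detected genes, and a difference in spread between the families was not tested. UBE2B was among the steadiest members, with an SD of 0.16 and signals from 7594 to 12177. UBE2D3, a partner of many RING ligases, had an SD of 0.17. USP14, which sits on the proteasome and trims ubiquitin chains there, had an SD of 0.14 and signals from 1188 to 1716, and USP16, a histone H2A deubiquitinase, had an SD of 0.17. The most variable members had low signals. They were UBE2J1 (SD 1.06), UBE2T (0.67) and UBE2S (0.50) among the E2 enzymes, and USP12 (1.04), USP22 (0.66) and USP4 (0.65) among the proteases. Sire accounted for a median of 29.1% of the variance of a UBE2 gene and 22.6% of a USP gene, against 25.9% over all detected genes. The highest shares were 73.3% for USP47, 64.2% for USP38 and 59.8% for UBE2D3, and the lowest was 4.0% for UBE2Q1.

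High and low muscling were compared to ask which members differed with the breeding value of the sire. USP38, USP47 and USP53 were higher in high muscling, as was UBE2G1, and UBE2V2 was lower. Thus 3 of 22 USP genes were called, all of them higher, and 2 of 24 UBE2 genes, 1 in each direction. Over all detected genes 7.78% were called, 2.28% as higher and 5.5% as lower, so that the number of UBE2 genes called was close to that background and the number of USP genes called rests on few genes. Under median centring of the arrays the share of all calls that were higher changed from 29.3% to 14.2%. The difference for each detected member is shown in the plot of high against low muscling. Calls are adjusted p-values under 0.05 from limma (two-sided) with sire as a random block and Benjamini-Hochberg adjustment over all 6360 genes.

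**Figure D1:**
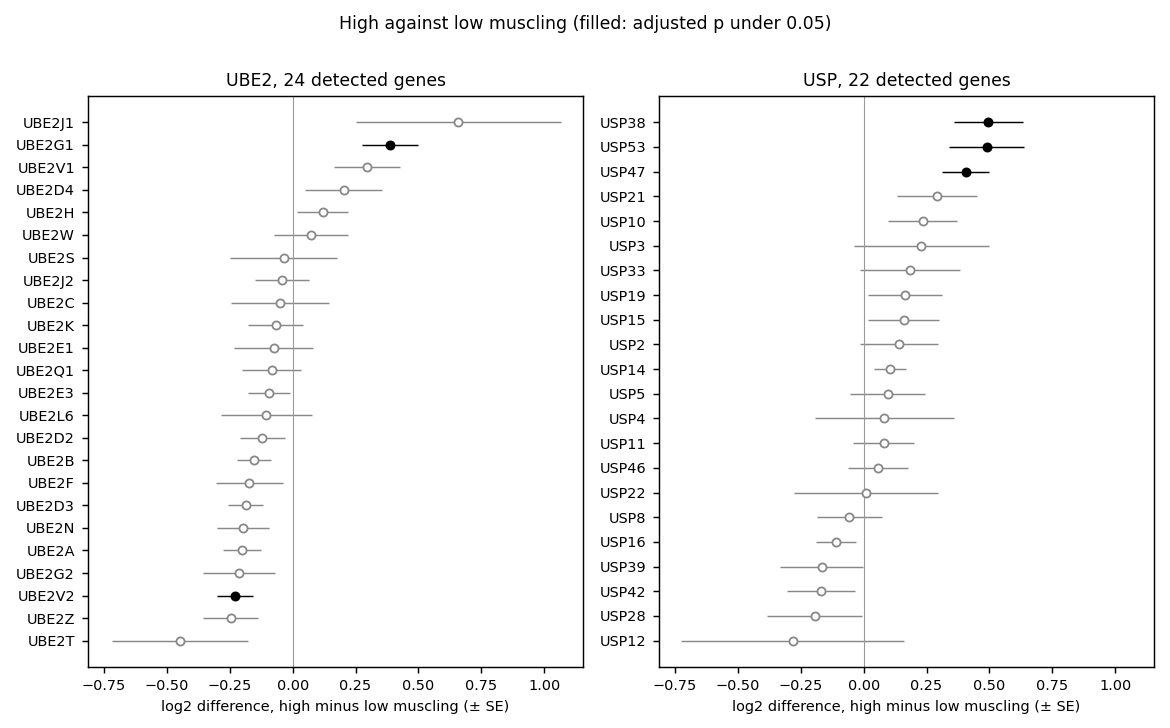
Log2 difference in signal between high and low muscling (x axis, ± SE from limma) for each of the 24 detected UBE2 genes (left) and the 22 detected USP genes (right), with filled points for adjusted p-values under 0.05. Most UBE2 points (18 of 24) lie below 0 and most USP points (16 of 22) above it, and the filled points are UBE2G1, UBE2V2, USP38, USP53 and USP47.

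USP47, a deubiquitinase of the base excision repair polymerase, had a lowest, median and highest signal of 2206, 2729 and 3305 in high muscling and of 1299, 1946 and 2990 in low muscling. The groups overlapped, with 14 of the 21 low animals below every high animal and 5 of the 19 high animals above every low animal. The difference was 0.40 ± 0.10 (SE, log2; 1.32-fold; adjusted p = 0.0067 in limma). Sire 17, a low sire, had progeny with signals of 2157.5, 2990.2, 2606, 2599.7 and 2426.9. Progeny of sires 16 and 5, the other low sires, reached 2256 and 2232 at most.

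USP38, a deubiquitinase known from innate immune signalling, had a lowest, median and highest signal of 484.5, 705.5 and 1081 in high muscling and of 316.7, 487.9 and 799.4 in low muscling. Of the 21 low animals 10 were below every high animal. The difference was 0.49 ± 0.14 (1.41-fold; adjusted p = 0.0199 in limma). A second probe set of USP38 followed the one used (r = 0.862 over the 40 animals) and gave a difference of 0.72 (adjusted p = 0.0208 in the same fit over probe sets). Of the members called here, USP38 and UBE2V2 had a second probe set, and in USP38 it gave the same call.

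USP53, a member of the family found at tight junctions, had a lowest, median and highest signal of 92.3, 160.3 and 248.9 in high muscling and of 53.7, 115.8 and 176.3 in low muscling. The ranges overlapped, with 5 high animals above every low animal. The difference was 0.49 ± 0.15 (1.40-fold; adjusted p = 0.0347 in limma). In the role lists used here, USP53 is 1 of 2 detected USP genes lacking deubiquitinase activity.

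UBE2G1, an E2 enzyme that builds the chains read by the proteasome, had a lowest, median and highest signal of 4776, 5923 and 8390 in high muscling and of 3091, 4578 and 6814 in low muscling. Of the low animals 13 were below every high animal. The difference was 0.39 ± 0.11 (1.31-fold; adjusted p = 0.0244 in limma). In this gene the 3 low sires were alike, with mean log2 signals of 12.15 (sire 16), 12.15 (sire 17) and 12.18 (sire 5), against 12.46 to 12.64 in the high sires.

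UBE2V2, an E2 variant that lacks a catalytic site and builds K63-linked chains together with UBE2N, went the other way. Its lowest, median and highest signals were 639.3, 724.9 and 882.5 in high muscling and 735.8, 870.7 and 1105 in low muscling. Animals beyond the range of the opposite group numbered 10 on each side. The difference was -0.23 ± 0.07 (1.17-fold; adjusted p = 0.0435 in limma). The second probe set of UBE2V2 followed the first weakly (r = 0.254) and differed by -0.06 (adjusted p = 0.869). UBE2N itself differed by -0.20 ± 0.10 (adjusted p = 0.267).

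None of these 5 calls held when 1 of the low families of sires 16 or 5 was left out, although the direction stayed. Without sire 16 the adjusted p-values in limma were 0.161 for USP47, 0.401 for USP38, 0.17 for USP53, 0.229 for UBE2G1 and 0.205 for UBE2V2. Without sire 5 they were 0.151, 0.164, 0.151, 0.14 and 0.306 in the same order. The calls of USP38 and USP53 were also lost without sire 11 (0.0839 and 0.149), that of USP53 without sire 7 (0.0592), and those of UBE2G1 and UBE2V2 without sire 2 (0.0539 and 0.199) or sire 7 (0.0611 and 0.136). The call of USP47 was kept without sires 11, 2, 7 and 17. The sire block used 1 correlation for all genes. USP47 and USP38 also differed between sires within groups, so their p-values with that block may be too small. With the 6 sire means as samples none of the 5 was called, at adjusted p-values of 0.238 to 0.425 in limma (0.358 for USP47 and 0.344 for USP38). Other scaling ended the call of UBE2G1 (median centring, 0.0597) and of USP53 (quantile normalization, 0.0503, and median centring, 0.0527). That of UBE2V2 was lost with a mean signal of at least 100 (0.0527), with the mean over probe sets (0.362) and with array weights (0.0583).

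Some markers of other cell types differed between the muscling groups, where 7.78% of all detected genes were called. Of the 8 fibroblast markers 6 were called, 5 of them lower in high muscling, with THY1 the exception, and their summed signal ranged from 5840 to 13298 (median 9649) in high muscling and from 8596 to 25153 (median 14142) in low muscling. Of 6 detected leukocyte markers 1 was called, AIF1, which was lower by 0.95 on the log2 scale, and summed signals of this list ranged from 751.6 to 1457 (median 1162) and from 823.2 to 2468 (median 1670). Of 5 smooth muscle markers TAGLN was called, as lower (-0.480 ± 0.125, adjusted p = 0.0135 in limma). Of 10 skeletal muscle markers NEB was called, as higher (0.514 ± 0.095, 8.37e-04). None was called of the detected markers of fat (8), endothelium (5), red blood cells (1) and nerve (1). Unadjusted p-values were under 0.05 for 1 of endothelium and 1 of nerve. Spiked hybridisation controls had a median log2 signal of 11.54 in high and 11.42 in low muscling. With these controls as a covariate the calls of USP53 (0.117) and UBE2V2 (0.0609) were lost in limma. The part of the cell type markers in the differences was not tested.

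Of the 22 UBE2 genes that were not called, 17 had negative differences, and the median of the 22 was -0.09. UBE2B differed by -0.15 ± 0.07 (adjusted p = 0.179), UBE2D3 by -0.19 ± 0.07 (0.0876) and UBE2D2 by -0.12 ± 0.09 (0.463, all in limma). Counted with those called, 16 of 22 USP differences were positive, with a median of 0.10. USP14 differed by 0.11 ± 0.06 (adjusted p = 0.336) and USP19, a protease known to be raised in wasting muscle, by 0.16 ± 0.15 (0.563). Over all detected genes the median was -0.04, and 44.2% of differences were positive, against 25.0% of the 24 UBE2 and 72.7% of the 22 USP genes.

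The level of a family in an animal was taken as the mean over its detected members of log2 signal, each centred on its mean over the 40 animals. The USP level was 0.059 ± 0.089 (SD, n = 19) in high and -0.053 ± 0.113 (SD, n = 21) in low muscling, and the UBE2 level was -0.025 ± 0.066 and 0.022 ± 0.084. The difference of the levels, USP minus UBE2, was above 0 in 14 of 19 high and 7 of 21 low animals. Its lowest, median and highest values were -0.13, 0.11 and 0.29 in high and -0.34, -0.10 and 0.25 in low muscling, so the groups overlapped widely. These levels are given as a description with no test.

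**Figure D2:**
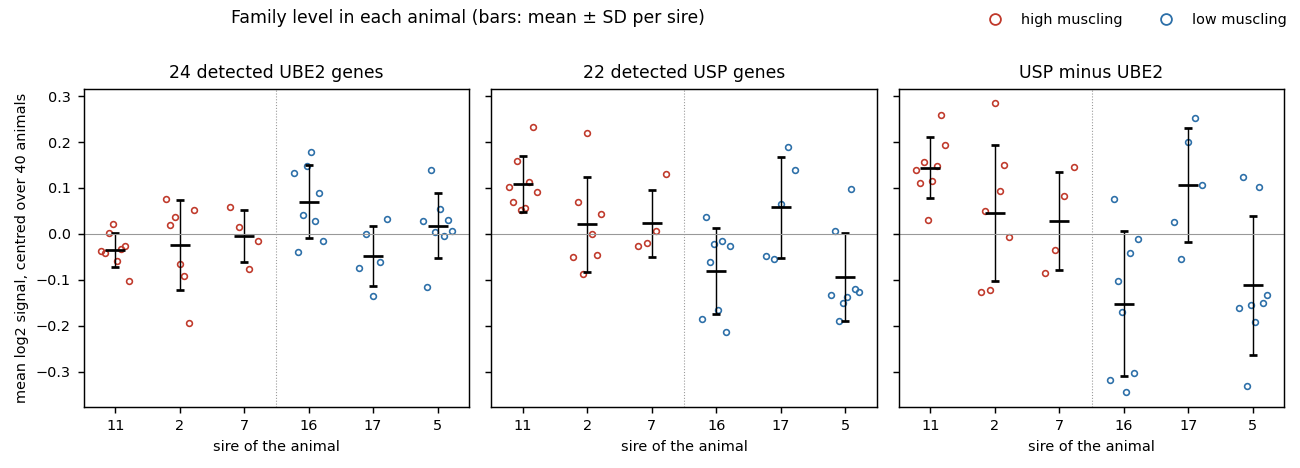
Family level of each animal (circles), by sire on the x axis, for UBE2 (left), USP (middle) and USP minus UBE2 (right), in log2 units on the y axis, with the mean ± SD of each sire in black. All 8 progeny of sire 11 lie above 0 in the right panel, as do 4 of 5 of sire 17, whereas 1 of 8 of sire 16 and 2 of 8 of sire 5 do.

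The order of the sires cut across the muscling groups. Sire 11 had the highest mean of USP minus UBE2 (0.144 ± 0.066, SD, n = 8). Sire 17, although low in muscling, came next with 0.106 ± 0.125 (n = 5), ahead of the high sires 2 (0.046 ± 0.148, n = 7) and 7 (0.028 ± 0.106, n = 4). Sires 5 (-0.112 ± 0.152, n = 8) and 16 (-0.152 ± 0.158, n = 8) were lowest. The ranges of neighbours in this order overlapped in every case. Over the 40 animals the UBE2 and USP levels correlated at a Pearson r of -0.503 and a Spearman rho of -0.559. Without the 2 animals farthest from the median UBE2 level, and with sire means kept, r was -0.545. Within sires, after subtracting sire means, r over the 40 animals was -0.320. Each level comes from the same arrays, whose overall brightness is fixed, and no p is given for it.

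Sires of the same muscling group were compared to ask whether families differed where the breeding value class did not. In a moderated F test over sires within groups (limma, fixed sire means), 3 of 24 UBE2 genes were called, UBE2D2, UBE2D3 and UBE2F, and 4 of 22 USP genes, USP8, USP47, USP38 and USP10. Over all detected genes the share was 22%, so neither family exceeded the background. In this test the adjusted p-values were 0.0021 for USP8, 0.0052 for USP47, 0.0097 for USP38, 0.0301 for UBE2D2, 0.0334 for UBE2D3, 0.038 for USP10 and 0.0478 for UBE2F. The log2 signals of these genes in each animal are shown in the plot of called members by sire.

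**Figure D3:**
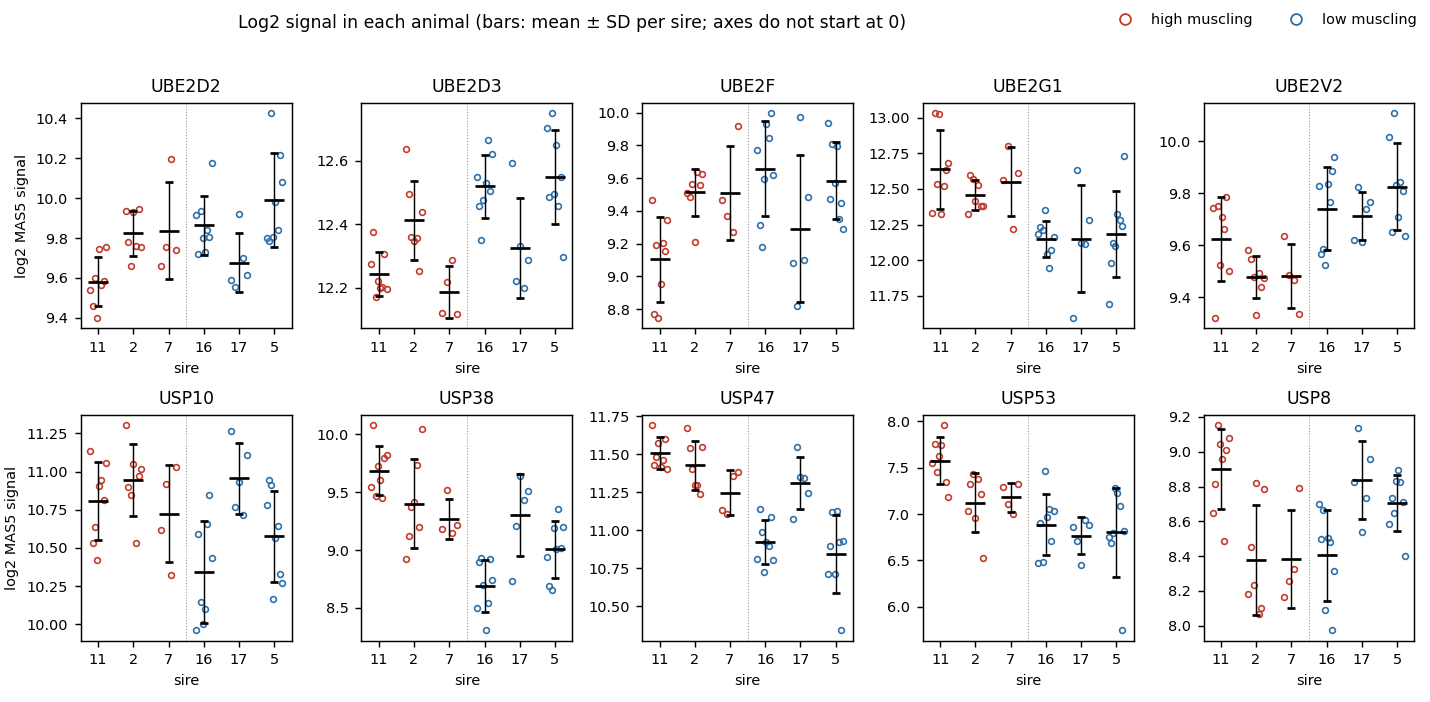
Log2 MAS5 signal (y axis) of each animal (circles) by sire (x axis; 11, 2 and 7 high muscling, 16, 17 and 5 low muscling) for the members called between muscling groups or in the F test between sires, with the mean ± SD of each sire in black. USP47, USP38 and USP10 are higher in sire 17 than in sires 16 and 5, USP8 is higher in sire 11 than in sires 2 and 7, and UBE2D2 and UBE2F are lower there.

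Sire 11 was set against the mean of the other high sires, 2 and 7. In its progeny UBE2J1, UBE2K, USP8 and USP53 were higher, and UBE2D2, UBE2F and USP19 were lower. These are 4 of 24 UBE2 and 3 of 22 USP genes, while 19.6% of all detected genes were called, 7.75% as higher and 11.8% as lower. The 4 include UBE2J1, which passed the detection filter largely through sire 11. Under median centring of the arrays the share of all calls that were higher changed from 39.6% to 57%. The GAPDH 3' to 5' signal ratio, a sign of RNA integrity, ranged from 1.22 to 1.38 (median 1.30) in sire 11. It had a median of 1.20 in each of sires 2 and 7. The same ratio for actin did not set sire 11 apart from sire 2. It ranged from 0.90 to 1.06 in sire 11 and from 0.93 to 1.06 in sire 2, with equal medians. In sire 7 the actin ratio was lower, at 0.85 to 0.93 (median 0.91). Cell type markers moved as well. All 8 detected fat markers had negative differences (median -0.71), with RBP4 and FASN called, and the summed signal of the list was 1093 to 2019 in sire 11, 1366 to 6881 in sire 2 and 1115 to 7876 in sire 7. Also called, all lower in sire 11, were 2 of 8 fibroblast markers (COL1A1 and LUM), 2 of 5 smooth muscle markers (CNN1 and ACTA2), 1 of 5 endothelial markers (CDH5) and 2 of 10 skeletal muscle markers (DES and ACTA1). Of 6 leukocyte markers none was called in limma, and 2 had an unadjusted p under 0.05. The part of the ratios and of the markers in these differences was not tested.

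USP8, which works on endosomes and protects receptors and their sorting machinery, had a lowest, median and highest signal of 358.7, 506.7 and 569.1 in sire 11 and of 268.4, 300.7 and 452.1 in sire 2. In sire 7 the signals were 286.7, 306.2, 320.6 and 443.6. Of the 8 animals of sire 11, 5 were above all 11 of sires 2 and 7. The difference was 0.52 ± 0.12 (1.43-fold; adjusted p = 0.0017 in limma). The second probe set of USP8 (r = 0.617) gave 0.56 (adjusted p = 0.0018). Between muscling groups USP8 differed by only -0.06 ± 0.13, with medians of 401.2 and 406.5.

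UBE2F, an E2 enzyme for the ubiquitin-like modifier NEDD8, had a lowest, median and highest signal of 429.4, 578 and 708.6 in sire 11 and of 592, 753.6 and 797.4 in sire 2. In sire 7 the signals were 708.4, 660.3, 618.7 and 969. Of the animals of sire 11, 6 were below all of sires 2 and 7. The difference was -0.41 ± 0.13 (1.33-fold; adjusted p = 0.0265 in limma), and without progeny 98 of sire 7 it was -0.34 (adjusted p = 0.077).

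UBE2D2, like UBE2D3 a partner of many RING ligases, had a lowest, median and highest signal of 675.2, 763 and 864 in sire 11 and of 810, 880.1 and 985.6 in sire 2. In sire 7 the signals were 807.7, 863.2, 1172.9 and 854.8. Most animals of sire 11, 6 of 8, were below all of the others. The difference was -0.25 ± 0.09 (1.19-fold; adjusted p = 0.0392 in limma), and without progeny 69 of sire 7 it was -0.19 (adjusted p = 0.121).

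UBE2J1, an E2 enzyme anchored in the endoplasmic reticulum, was near the detection level. Its signals reached 186.5 (median 122.5) in sire 11 and were 17.3 to 105.6 in sire 2 and 29.1 to 90.9 in sire 7, and 10 of the 11 animals of sires 2 and 7 were below all of sire 11. The minimum of 61.8 was missed by 5 of those 11 animals and by none of the 8 of sire 11. Over the 40 animals 18 were below it, so the gene passed the filter largely through sire 11. The difference of 1.28 ± 0.41 (adjusted p = 0.0251 in limma) is therefore uncertain in size. Its p-values are given as a description and not as support, because the filter favoured the family called higher. With an offset of 32 added to the signals the difference was 0.87 (0.00522), and without progeny 18 of sire 7 the adjusted p was 0.0601. UBE2K, which builds K48-linked chains, was higher by 0.34 ± 0.11 (adjusted p = 0.0321), but not without progeny 58 of sire 7 (0.0898).

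USP19 was lower in sire 11 by 0.50 on the log2 scale (SE 0.15; 1.41-fold; adjusted p = 0.014 in limma). Its signals had a lowest, median and highest value of 181.4, 274.9 and 304.7 in sire 11, 292.1, 397.5 and 624.4 in sire 2 and 270.6, 352.2 and 434.3 in sire 7. The low families, at medians of 286.1 to 298.6, were near sire 11. USP53 was higher in sire 11 by 0.42 ± 0.15 (adjusted p = 0.0466), a call that was lost when progeny 18, 58 or 69 of sire 7 or progeny 88 of sire 17 was left out (0.0561, 0.0716, 0.0869 and 0.0501). It was also lost with no detection filter (0.0689), with the mean over probe sets (0.0522) and with array weights (0.0771). USP53 has 1 probe set, so the mean over probe sets changed only other genes in the fit. Median centring ended the calls of UBE2D2 (0.184) and UBE2F (0.0843), and having no detection filter that of UBE2D2 (0.0589, all in limma).

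Sire 17 was set against the mean of the other low sires, 16 and 5. USP2, USP10, USP38 and USP47 were higher in its progeny, as was UBE2H, and UBE2D3 was lower. Thus 4 of 22 USP genes were called, all higher, where 14.1% of all detected genes were called, 4.37% as higher and 9.7% as lower. For UBE2 it was 2 of 24. The animals of sires 16 and 5 also serve as part of the low group in the comparison of muscling groups, so the values of USP38 and USP47 in both comparisons share those animals.

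USP47 differed by 0.43 ± 0.09 (1.35-fold; adjusted p = 0.0018 in limma). Of the 5 animals of sire 17, 4 were above all 16 of sires 16 and 5, and 12 of those 16 were below all of sire 17. With a mean log2 signal of 11.31, sire 17 lay between the high sires 7 (11.25) and 2 (11.43). USP38 had signals of 426.5, 589.6, 799.4, 691.6 and 727.2 in sire 17, from 316.7 to 487.9 in sire 16 and from 402.9 to 654.1 in sire 5, and differed by 0.46 ± 0.14 (adjusted p = 0.0249). The second probe set of USP38 gave 0.73 (adjusted p = 0.0063). Without progeny 79, 85 or 88 of sire 17 the adjusted p for USP38 was 0.107, 0.0765 and 0.0913.

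USP10, known to stabilise p53 and to bind the stress granule protein G3BP, had signals of 2466.5, 1741.4, 1951.2, 1681.2 and 2203.6 in sire 17. The lowest, median and highest were 997.2, 1258 and 1839 in sire 16 and 1149, 1557 and 1967 in sire 5. Only 2 animals of sire 17 were above all of the others, but 12 of the 16 others were below all of sire 17. The difference was 0.50 ± 0.14 (1.41-fold; adjusted p = 0.0161 in limma), and the call was lost without progeny 39 (0.0657) or 88 (0.0571) of sire 17.

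USP2, a protease whose transcript follows the circadian clock in many tissues, ranged from 1030 to 1336 (median 1293) in sire 17, from 696.2 to 1182 (median 909.6) in sire 16 and from 569.7 to 1286 (median 873.7) in sire 5. It differed by 0.48 ± 0.17 (1.40-fold; adjusted p = 0.0481 in limma). Adjusted p-values were between 0.0515 and 0.116 without progeny 71, 79, 85 or 88 of sire 17 and without progeny 18 or 98 of sire 7. They were between 0.0551 and 0.0724 under median centring, with no detection filter, with the mean over probe sets and with array weights. USP2 has 1 probe set, so the mean over probe sets changed only other genes in the fit.

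UBE2D3 had signals of 6177.3, 4772.3, 5153, 4699.9 and 4999.6 in sire 17. Sires 16 and 5 had a lowest, median and highest of 5220, 5863 and 6493, and of 5031, 5882 and 6897. The difference was -0.21 ± 0.07 (1.16-fold; adjusted p = 0.0461 in limma), with 3 of the 5 animals of sire 17 below all 16 of sires 16 and 5. UBE2H, an E2 enzyme of a multi-subunit ligase that acts in red cell maturation, was higher by 0.33 ± 0.11 (adjusted p = 0.0378), but its second probe set (r = 0.205) differed by -0.004 (0.992). Leaving out progeny 71, 85 or 88 of sire 17, or progeny 79 for UBE2D3 and 39 for UBE2H, gave adjusted p-values from 0.0737 to 0.158 for UBE2D3 and from 0.0586 to 0.127 for UBE2H. The call of UBE2D3 was lost under quantile normalization (0.186), with no detection filter (0.0702) and with the mean over probe sets (0.059). That of UBE2H was lost under these settings (0.0524, 0.0581 and 0.406) and under median centring (0.0723). UBE2D3 has 1 probe set, so for it the mean over probe sets changed only other genes in the fit.

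Other pairs of sires gave no called member. In sire 2 against sire 7 limma called 0% of all detected genes, and 355 had an unadjusted p under 0.05, among them UBE2D3 and UBE2T. In sire 16 against sire 5 it called 0.0314%, which is 2 genes and no member, and USP8 and USP38 had an unadjusted p under 0.05. These 4 members were named after their values were seen. The mean of each sire family for all detected members is shown in the heat map of sire means.

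**Figure D4:**
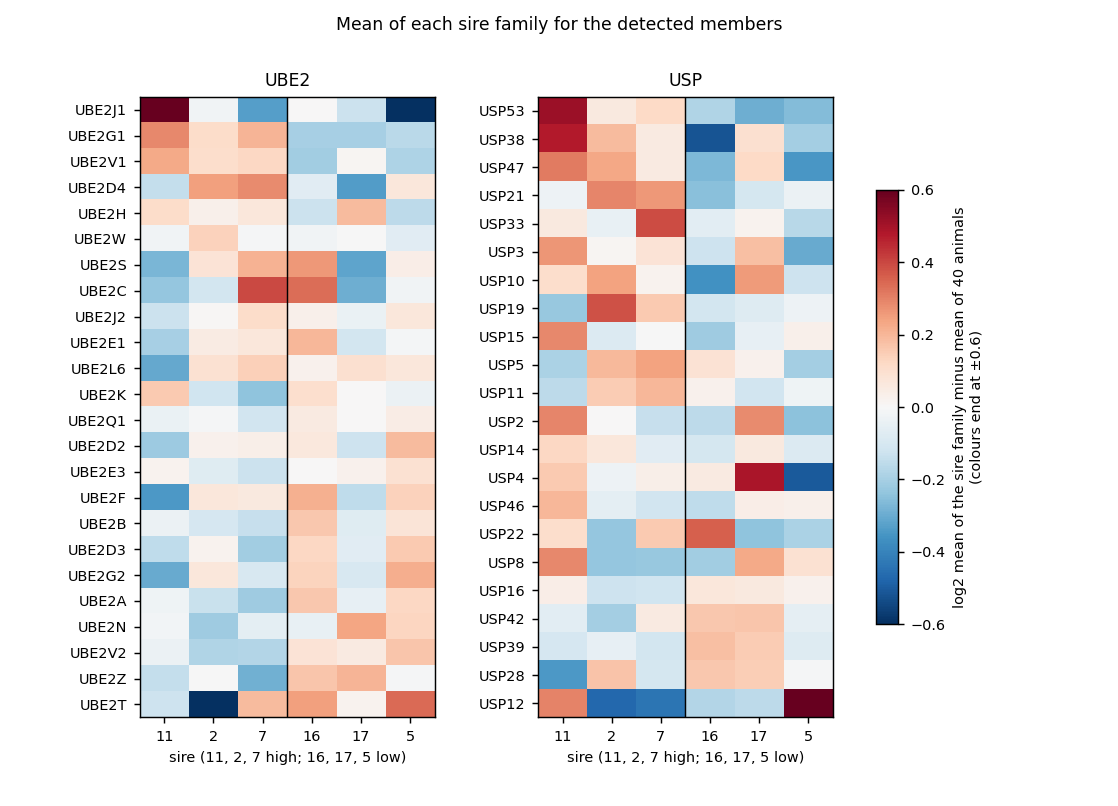
Mean log2 signal of each sire family (columns) minus the mean over the 40 animals, for the detected UBE2 (left) and USP (right) genes (rows, ordered by the high minus low difference of sire means), red above and blue below 0. In sire 11, 15 of 22 USP but 6 of 24 UBE2 genes lie above 0, whereas in sire 16 it is 8 of 22 and 18 of 24.

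The heat map shows how many members stood behind these levels. The share of USP genes above their mean was 68.2% in sires 11 and 17, 59.1% in sire 7, 54.5% in sire 2, 36.4% in sire 16 and 22.7% in sire 5. For UBE2 it was 25.0% in sire 11, 41.7% in sire 17, 50.0% in sire 7, 54.2% in sire 2, 75.0% in sire 16 and 62.5% in sire 5. Over all detected genes it was 39.6%, 43.6%, 52.1%, 49.1%, 57.5% and 58.6% in the same order of sires.

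Members were also compared by the roles they are known for. None of the 6 detected UBE2D-like enzymes (UBE2D2, UBE2D3, UBE2D4, UBE2E1, UBE2E3 and UBE2W) was called between muscling groups, and their median difference was -0.09. Of the 6 chain builders, which include UBE2C and UBE2S of the anaphase-promoting complex, UBE2G1 was called. All 3 detected enzymes of histone and DNA damage signalling, UBE2A, UBE2B and UBE2T, had negative differences (median -0.20) and none was called. Among the proteases, the 4 known from immune signalling had positive differences in both sire 11 and sire 17 (medians 0.34 and 0.47). In sire 11 none of the 4 was called. In sire 17 USP2 and USP38 were called, against 14.1% of all detected genes, and USP15 differed by only 0.04. Differences were positive for 63.6% and 77.3% of the 22 USP genes in sires 11 and 17, and for 43.9% and 40.6% of all detected genes. Of the 6 that act on chromatin and transcription none was called in high against low muscling, sire 11 or sire 17.

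Pairs of members went both ways. The median Pearson r over the 40 animals was 0.023 for the 276 pairs within UBE2, 0.028 for the 231 pairs within USP, -0.044 for the 528 pairs between the families and 0.009 over all pairs of detected genes. With sire means removed it was -0.013, -0.006, -0.014 and 0.002. An r of at least 0.3 in size was found in 67 pairs within UBE2 (24.3%; 37 positive and 30 negative), 42 within USP (18.2%; 30 and 12) and 111 between the families (21%; 35 and 76), against 19% of all pairs of detected genes. These pairs share arrays and sires, and r is given as a description. A few pairs stood at the ends. USP14 and USP47 (r = 0.666) and USP14 and USP38 (r = 0.616) varied together, as did USP38 and USP47 (r = 0.618), but for the last pair r was -0.014 once sire means were removed. For USP15 and USP28 r was -0.722 and remained -0.663 within sires. UBE2G1 went with USP15 (r = 0.652, and 0.644 within sires) and USP38 (0.638 and 0.437) and against UBE2D3 (-0.615 and -0.449), UBE2Z (-0.572 and -0.416) and UBE2V2 (-0.527 and -0.348). UBE2B and UBE2Q1 had an r of 0.498 (0.534 within sires), and UBE2D4 and USP2 one of -0.623 (-0.636).

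The steps before and after the E2 enzymes were read from lists of other pathway genes. Of 7 detected E1 enzymes and their relatives none was called between muscling groups in limma (1 had an unadjusted p under 0.05). Of 36 detected E3 ligases 5 were called (13.9%), all higher in high muscling, and 27 had positive differences (median 0.15). Over all detected genes 7.78% were called in either direction and 2.28% as higher. No values with a sire left out are given for these lists. Such fits called 29 of all detected genes without sire 16 and 23 without sire 5. Those with the smallest p were UBR3 (0.53 ± 0.11, adjusted p = 0.0028) and UBE3C (0.51 ± 0.12, 0.0073), and ARIH1, UBE3A and FBXW7, named after their values were seen, were the others. The list of other deubiquitinases holds enzymes outside the USP family and relatives, such as subunits of the COP9 signalosome. Of its 26 detected genes 1 was called (3.85%, below the 7.78% of all detected genes), OTUD4 (0.90 ± 0.18, adjusted p = 0.0015 in limma). Of 11 ubiquitin-like modifiers 2 were called (18.2%), GABARAP (-0.32 ± 0.08, 0.0148) and FAU (-0.22 ± 0.07, 0.0483). Both were called lower, where 5.5% of all detected genes were.

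Within the high group, sire 11 differed from sires 2 and 7 in 3 of 7 E1 genes, 10 of 36 E3 ligases (27.8%) and 5 of 26 other deubiquitinases (19.2%), where 19.6% of all detected genes were called. UBA1, the main ubiquitin-activating enzyme, was lower (-0.53 ± 0.09, adjusted p = 2.92e-05 in limma) and NAE1, a subunit of the NEDD8-activating enzyme, was higher (0.35 ± 0.09, 0.0034). Of the ligases 6 were higher, led by FBXW7 (0.66 ± 0.11, 6.32e-05), and 4 were lower, led by STUB1 (-0.63 ± 0.12, 2.51e-04). FBXO32, the muscle ligase also known as atrogin-1 and named after its values were seen, was higher by 1.70 ± 0.51 (0.016). Among the other deubiquitinases MINDY2 (1.65 ± 0.26, 1.53e-05) and OTUD4 (0.81 ± 0.13, 2.49e-05) were higher. Of 11 ubiquitin-like modifiers 4 were called (36.4%). GABARAPL1 (0.77 ± 0.13, 3.68e-05), FAU (0.23 ± 0.07, 0.011) and UFM1 (0.65 ± 0.19, 0.0115) were higher and GABARAP was lower (-0.37 ± 0.07, 1.12e-04), with FAU and UFM1 named after their values were seen.

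Within the low group, sire 17 differed from sires 16 and 5 in 5 of 36 ligases (13.9%), 4 of them higher, where 14.1% of all detected genes were called. None of 7 E1 genes was called, and none had an unadjusted p under 0.05 in limma. FBXW7 (0.60 ± 0.12, adjusted p = 7.92e-04) and ARIH1 (0.47 ± 0.11, 0.0039) were higher. Of the 26 genes in the list of other deubiquitinases and relatives 4 were called (15.4%). Among these OTUD4 (0.97 ± 0.14, 1.59e-05) was higher. COPS5, listed as a relative and the catalytic subunit of the COP9 signalosome, was lower (-0.31 ± 0.07, 0.0012). All 5 ubiquitin-like modifiers called, of 11, were lower, where 9.7% of all genes were called lower, with the smallest p for GABARAP (-0.40 ± 0.07, 1.56e-04) and MAP1LC3A (-0.82 ± 0.19, 0.0025). FAU was among them (-0.30 ± 0.07, 0.00325), opposite in direction to its difference in sire 11. Of the cell type markers, 2 of 8 fibroblast genes (LUM and DCN) and 1 of 5 endothelial genes (PECAM1, -0.57 ± 0.13, 0.00165) were lower, and 3 of 10 skeletal muscle genes (NEB, MYBPC1 and MYH7) were higher. All 8 detected fat markers had negative differences (median -0.51), with none called in limma and 1 at an unadjusted p under 0.05. The part of these markers was not tested.

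Probe sets of the same gene often disagreed. Of the members 19 had more than 1 probe set, and the 23 probe sets not used correlated with the one used at a median r of 0.151 (-0.304 to 0.862). For the 10 of them above the detection level the median r was 0.230. The best case was USP38, followed by USP8, and for USP46 and USP33 r was -0.033 and -0.069. The choice mattered in UBE2V2, UBE2H, USP38, USP28 and USP21. The second probe set of UBE2V2 was not called between muscling groups (-0.06, adjusted p = 0.869 in limma), where the one used was. That of UBE2H was not called in sire 17 (-0.004, 0.992), where the one used was. In sire 11 the probe set used for USP38 was not called (0.35, adjusted p = 0.052), while the second differed by 0.92 (1.65e-04). The probe set used for USP28 differed by -0.38 between sire 11 and sires 2 and 7, and the second by 0.84 (adjusted p = 3.39e-04 in limma). In sire 17 the 2 probe sets gave 0.07 and 0.85 (0.0013 for the second). The second probe set of USP21 was lower in sire 11 by 0.66 on the log2 scale (3.00e-04), where the one used differed by -0.31. USP28 and USP21 were named for this after their values were seen, and a call on a member with a single probe set has no such check.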

How the data were processed

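RNA from longissimus dorsi muscle of 40 sheep was measured on 1 GeneChip Bovine Genome array each. Intensity was summarised by the authors as a MAS5 signal per probe set before deposit. These values are linear, and on each array their mean with 2% trimmed at both ends came to 200. The MAS5 version is not given in the sources used here. Precision is limited by how many arrays there are. The platform annotation, which is bovine and was used as given, pairs 13292 of 24016 probe sets other than controls with 1 symbol, 86 with more and 10638 with none. Where a gene had several probe sets, the brightest on average was used.

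Log2 signals of 6360 detected genes (mean signal of 61.8 or more) were fitted with limma 3.58.1 in R 4.3.3. High and low muscling were compared with sire as a random block (duplicateCorrelation, 0.135), and sires with 6 fixed sire means, 4 orthogonal contrasts and a moderated F test. The value of 0.135 is 1 correlation used for every gene. It may be too low for genes whose sires differ within groups. P-values were Benjamini-Hochberg adjusted over all detected genes, with calls at 0.05. The code was tested on simulated data. Progeny of a sire are separate animals. Other probe sets were read from the same fits over all 7968 probe sets with 1 symbol above the detection level, an alternative chosen after seeing the data.

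The members, their role lists, the pathway and marker lists and the tests were chosen with earlier results of these data known. Named members are those called (up to 10 per sire contrast and family), the 3 with the highest signal, and the 3 most and 2 least variable. UBE2B, UBE2D2, UBE2D3, UBE2N, UBE2G1, UBE2H, USP14 and USP19 are named in any case. Only some of the pairs with the 3 highest and 3 lowest r, within each family and between them, are given. Of other lists the 2 genes with the smallest p are named, and any others are marked. Alternatives were an offset of 32, a floor at the 20th percentile, median centring, quantile normalization, no detection filter, a mean signal of at least 100, the mean over probe sets, array weights, hybridisation controls as covariate, no sire block, sire means as samples, each sire left out, and each progeny of the smallest families, sires 7 and 17, left out. No sequences are shown, because none of the tables used here holds them.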

Additional observations from a re-analysis of the deposited data

Results flagged for a closer look

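Single animals stood apart from the other progeny of their sire in 3 of 78 combinations of sire family and measure (10 called members and 3 family levels over 6 sires), by Dixon's ratio of the gap to the range. Chance flags about 1 in 20. For UBE2D2 in sire 16, progeny 99 was highest, with a signal of 1159 against 842.2 to 977.7 in the others (ratio 0.532, n = 8). For UBE2F in sire 2, progeny 5 was lowest, with 592 against 717.2 to 797.4 (ratio 0.644, n = 7). For USP53 in sire 5, progeny 80 was lowest, with 53.7 against 103.1 to 156.1 (ratio 0.611, n = 8). These animals were not left out one by one, and their part in the calls of UBE2D2, UBE2F and USP53 was not tested.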

How the results depend on the processing

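For high against low muscling, 2 UBE2 and 3 USP genes were called. The number of UBE2 genes called was 1 with a mean signal of at least 100, 1 with the mean over probe sets, 7 without the sire block, and 0 with sire means as samples (1 of 24 with an unadjusted p under 0.05 in limma). With each sire left out in turn it ranged from 0 (without sire 7, 16 or 5, where 3 or 4 had an unadjusted p under 0.05) to 5 (without sire 17). The number of USP genes called was 0 with sire means as samples (3 unadjusted) and ranged from 0 (without sire 16 or 5, 3 unadjusted in each) to 4 (without sire 17). Over all detected genes the count of 495 was 1586 without the block, 1221 without sire 17, 290 without sire 2, 272 without sire 7, 29 without sire 16, 23 without sire 5 and 0 with sire means as samples (886 unadjusted). The share of higher calls among all genes was 29.3%, and 14.2% under median centring.

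For the F test within groups, 3 UBE2 genes were called, 1 under median centring and 1 with no detection filter, and 0 (7 unadjusted, without progeny 71 of sire 17) to 4 with single progeny left out. For sire 11, 4 UBE2 genes became 2 under median centring, and 3 USP genes became 5 under quantile normalization, 7 under median centring, 5 with an offset of 32 and 6 with a mean signal of at least 100. For sire 17, 2 UBE2 genes became 0 under quantile normalization (6 unadjusted), 1 under median centring, 0 with no detection filter (7 unadjusted), 0 with the mean over probe sets (5 unadjusted) and 0 to 3 with single progeny left out. The 4 USP genes became 1 (without progeny 88 of sire 17) to 4.

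The median r within UBE2 was 0.0729 under median centring, -0.0197 with the mean over probe sets and -0.0131 with sire means removed. Within USP it was -0.0055 with sire means removed. Between the families it was -0.0194, -0.0340, -0.0322 and -0.0136 under median centring, the mean over probe sets, no detection filter and sire means removed. The cause was not tested in any of these cases. USP minus UBE2 (0.159) kept its direction between muscling groups, at 0.137 to 0.169 under other scaling, probe set rule or filter and, in an alternative chosen after seeing the data, at 0.112 (without sire 16) to 0.215 (without sire 17) with each sire left out. The UBE2 level alone (-0.047) ranged from -0.017 (without sire 16) to -0.069 (without sire 17), and the USP level (0.112) from 0.075 (without sire 11) to 0.147 (without sire 17). The 18 called differences, each a gene in 1 comparison, gave 318 values under the alternatives. Of these 244 kept direction and call, 74 kept the direction and lost the call, and 0 changed sign. The 18 were picked for their calls in the same data, so a kept direction is no separate support. USP8 and USP19 in sire 11 and USP47 in sire 17 were called in all 18 alternatives. Precision was lowest near the detection level, where UBE2J1 and USP12, with mean signals of 74.1 and 64.6, had an SD over 40 animals of 1.06 and 1.04 on the log2 scale.

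No paired analysis was possible because the labels give no replicate numbers shared by the groups.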
